A study of Mus musculus with 8 samples.

Results

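The EGF family ligands and the ERBB receptors form one signalling family, and 10 of its genes were followed here through 8 libraries of poly(A) RNA from immortalized mouse embryonic fibroblasts. They are the ligand genes Tgfa, Areg, Btc, Ereg, Hbegf, Egf and Epgn and the receptor genes Egfr, Erbb2 and Erbb3. The 10 genes stand among the 25215 entries of the deposited count table. They were selected on their counts in these 8 libraries, by a list of names that gives no contrast and no threshold, and with results of the same libraries already known. Their fold changes and adjusted p-values below therefore describe these libraries and are not independent evidence about the family.

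All cells are the line labelled 6KO, which lacks Setdb1, Suv39h1, Suv39h2, Ehmt1 and Ehmt2, genes of the H3K9 methylation machinery, together with Ring1b, a ubiquitin ligase gene of Polycomb repressive complex 1 (PRC1). The combined group carried an shRNA against Ring1a and was grown for 7 days in 1 uM DS3201, which blocks the H3K27 methyltransferases EZH1 and EZH2. The inhibitor group carried the control shRNA and received the same DS3201 treatment. The knockdown group carried the Ring1a shRNA without DS3201, and the control group carried the control shRNA without DS3201. The shRNAs were delivered by lentivirus with blasticidin selection. Each group had 2 libraries. They carry the prefixes 20 and 28 in the table and are called set 20 and set 28. The labels describe 1 line, with every group lacking the same 6 genes, and do not say that the libraries of a group came from separate cultures. The p-values thus cover the spread between 2 libraries a group, pooled over the groups, which may be technical. In fits with a term for the set, the difference between the sets that the groups share is taken out of that spread.

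EGF family ligands are made as membrane proteins and are released by metalloproteases of the ADAM family. They bind EGFR or the related ERBB receptors, which pair with one another and signal through the RAS to ERK cascade. TGF-alpha, amphiregulin (Areg) and EGF bind EGFR, whereas betacellulin (Btc), epiregulin (Ereg) and HB-EGF also activate ERBB4. ERBB2 binds none of these ligands by itself, and ERBB3 is a neuregulin receptor with little kinase activity of its own. Fibroblasts respond to EGFR ligands with proliferation and migration. Polycomb complexes, through H3K27 methylation and H2A ubiquitination, keep many CpG-rich promoters silent.

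Tgfa, Areg and Btc are the ligands on which the results turn, so their promoters are shown first. Each sequence is 300 bases, from 250 bases before the annotated start to 50 bases after it, taken from RefSeq on GRCm38.p6 and written 5′ to 3′ on the gene's strand, with every CpG dinucleotide in capitals. The Tgfa promoter is chr6:86194972-86195271 on the plus strand, the Areg promoter chr5:91139349-91139648 on the plus strand and the Btc promoter chr5:91402945-91403244 on the minus strand.
Tgfa: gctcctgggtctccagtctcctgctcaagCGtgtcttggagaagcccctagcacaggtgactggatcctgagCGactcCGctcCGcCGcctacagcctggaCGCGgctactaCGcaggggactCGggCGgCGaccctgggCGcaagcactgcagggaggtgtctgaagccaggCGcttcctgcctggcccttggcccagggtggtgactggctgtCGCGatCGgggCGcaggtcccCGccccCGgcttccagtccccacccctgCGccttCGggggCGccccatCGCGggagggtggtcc
Areg: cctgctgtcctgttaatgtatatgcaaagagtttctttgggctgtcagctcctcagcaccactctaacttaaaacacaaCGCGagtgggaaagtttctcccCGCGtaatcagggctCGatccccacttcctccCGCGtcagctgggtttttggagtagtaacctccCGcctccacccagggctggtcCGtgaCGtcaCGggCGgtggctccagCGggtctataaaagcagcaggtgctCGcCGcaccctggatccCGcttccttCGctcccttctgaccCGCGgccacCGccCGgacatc
Btc: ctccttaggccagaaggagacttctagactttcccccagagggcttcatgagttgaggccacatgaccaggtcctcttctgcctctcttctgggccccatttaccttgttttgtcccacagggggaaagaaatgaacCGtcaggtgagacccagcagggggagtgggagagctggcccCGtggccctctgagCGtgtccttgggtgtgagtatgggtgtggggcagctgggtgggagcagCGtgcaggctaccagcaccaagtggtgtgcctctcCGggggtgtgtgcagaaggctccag
The Tgfa promoter held 24 CpGs, a number reached by 19.98% of the 32851 RefSeq promoters of this length, and its GC content was 70.7%. The Areg promoter held 21 CpGs, a number reached by 24.8% of promoters, at 59.3% GC. The Btc promoter held 5 CpGs, below the median of 7 over all promoters, at 60.3% GC. Among the other genes of the family with an entry, the Erbb2 promoter held 21 CpGs, the Egfr promoter 15, the Epgn promoter 5 and the 2 Egf promoters 0 and 17. The letters TGANTCA, the core of an AP-1 site, which reads the same on both strands, were in none of these windows, against 7.81% of all promoters. Promoter entries matched 7 of the 10 genes. Ereg, Erbb3 and Hbegf had none.

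The table was deposited as raw counts with totals of 12738585 to 23688253 per library. Levels are given as CPM, counts scaled to a common library size by TMM, and 3 counts, the floor used here, correspond to 0.122 to 0.265 CPM. Ring1, the gene of Ring1a, had 3.52 and 2.04 CPM in the combined libraries, 20.4 and 7.51 CPM in the inhibitor libraries, 4.51 and 1.41 CPM in the knockdown libraries and 20.2 and 9.73 CPM in the control libraries (set 20, set 28). Both shRNA libraries lay below both control shRNA libraries, with and without DS3201, but the fitted change did not pass in edgeR's quasi-likelihood test, at a log2 fold change of -2.32 ± 0.76 (SE) without DS3201 and -2.33 ± 0.76 with it (adjusted p of 1 for both, and 0.705 and 0.594 with the set as a block). The first 3 principal components held 54.4%, 29.3% and 7.57% of the variance. DS3201 separated the libraries on the first and the set on the second, and on the third the set 28 library of the inhibitor group was far from the other 7. That set effect is why each call is given both without a term for the set and with the set as a block. Of 12 fibroblast markers, 10 to 12 had a count in each library. Their summed level was 12630 and 13956 CPM in combined, 15394 and 13068 CPM in inhibitor, 21736 and 18264 CPM in knockdown and 20951 and 20201 CPM in control libraries. Col1a1, Col1a2, Fn1 and Vim carried most of it, whereas Thy1 had 0 to 9 counts, and Lum was at 0 without DS3201.

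**Figure D1:**
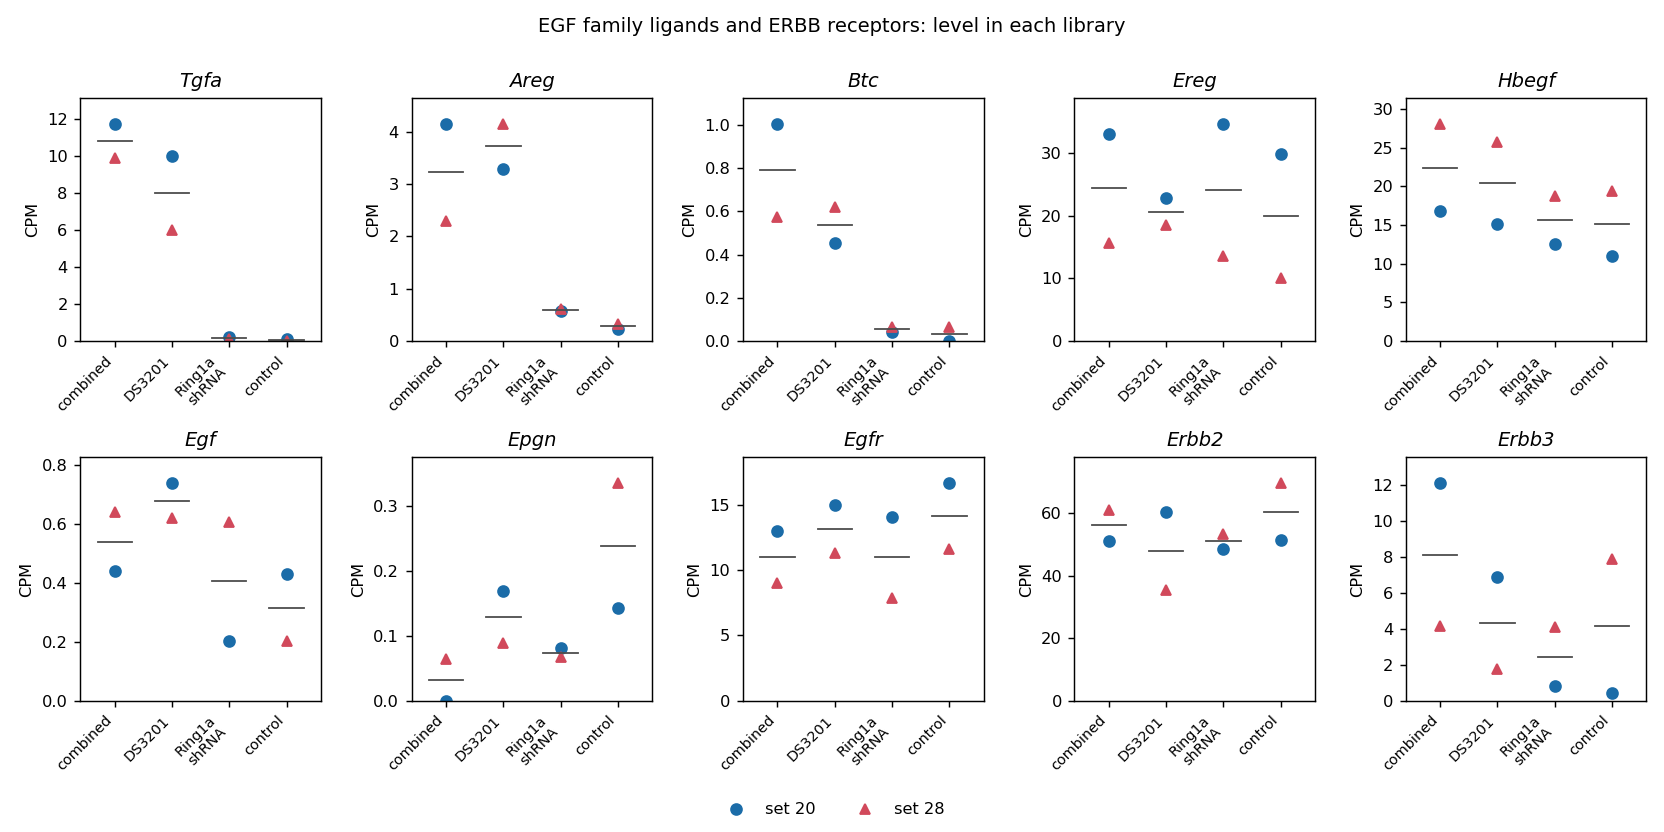
Level of each of the 10 genes in CPM (y axes start at 0) for the combined, inhibitor (DS3201), knockdown (Ring1a shRNA) and control groups; circles are set 20, triangles set 28 and bars the mean of the 2 libraries. Tgfa, Areg and Btc are high in all 4 libraries with DS3201 and low in all 4 without it, whereas in Ereg, Hbegf and Erbb3 the 2 sets lie far apart within groups.

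Tgfa encodes transforming growth factor alpha, an EGFR ligand, and lies on chromosome 6 from 86195223 to 86275719 (GENCODE vM21 on GRCm38). It had 187 and 155 counts in the combined libraries, 177 and 68 in the inhibitor libraries, 6 and 2 in the knockdown libraries and 2 and 0 in the control libraries. In CPM these were 11.7 and 9.90 in combined, 10.0 and 6.01 in inhibitor, 0.244 and 0.135 in knockdown and 0.0950 and 0 in control libraries. Every library with DS3201 was above 6 CPM and every library without it had 6 counts or fewer, so the groups did not overlap. In bulk RNA, a change in the number of cells that express a gene and a change of its RNA per cell cannot be told apart. Tgfa rose with DS3201 under the control shRNA, by a log2 fold change of 7.04 ± 0.85 (SE; adjusted p = 0.0303, edgeR quasi-likelihood test over 15287 entries). It rose with DS3201 under the knockdown by 5.74 ± 0.75 (adjusted p = 0.0383) and in the combined group against control by 7.47 ± 0.86 (adjusted p = 0.0208). The size of these folds rests on very few counts in the lower groups. From the counts alone, the ratio was 152 (95% counting interval 41.6 to 1262) over the 2 counts of the control group, 53.4 (26.8 to 125) over the 8 counts of the knockdown group, and 195 (53.5 to 1614) for combined against control.

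With the set as a block, the adjusted p of Tgfa was 0.00145, 0.0015 and 0.000898 for these 3 comparisons. Without the block the call was lost when 1 of several libraries was left out. For DS3201 under the control shRNA, Tgfa had an adjusted p of 0.105 and 0.0952 without the control library of set 20 or 28, 0.0573 and 0.122 without the inhibitor library of set 20 or 28, and 0.131 and 0.112 without the combined library of set 20 or 28. Its log2 fold change was 10.01 without the control library of set 20, where 0 control counts remained, and 6.29 to 7.31 without any other library. For DS3201 under the knockdown, the adjusted p of Tgfa was 0.243 and 0.184 without either knockdown library, 0.114 and 0.12 without either inhibitor library and 0.216 and 0.173 without either combined library. For combined against control it was 0.0856 and 0.0712 without either control library, 0.0683 and 0.0689 without either inhibitor library and 0.134 and 0.103 without either combined library. The 2 comparisons with the control group share its libraries.

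Areg encodes amphiregulin, an EGFR ligand of epithelia and immune cells that also acts on fibroblasts. It had 66 and 36 counts in the combined libraries, 58 and 47 in the inhibitor libraries, 14 and 9 in the knockdown libraries and 5 and 5 in the control libraries. The levels were 4.14 and 2.30 CPM in combined, 3.28 and 4.15 CPM in inhibitor, 0.569 and 0.606 CPM in knockdown and 0.238 and 0.336 CPM in control libraries. The lowest library with DS3201 was above the highest without it, and both knockdown libraries were above both control libraries. Areg rose in the combined group against control, with a log2 fold change of 3.47 ± 0.56 (SE; adjusted p = 0.0459, edgeR). For DS3201 under the control shRNA the log2 fold change of Areg was 3.68 ± 0.56, which missed the threshold at an adjusted p of 0.0516 and passed with the set as a block (adjusted p = 0.0101). Under the knockdown it was 2.44 ± 0.52, at an adjusted p of 0.112 without and 0.0261 with the block. Leaving out any 1 of the 8 libraries ended the unblocked call for the combined group, and the adjusted p of Areg then ran from 0.0674 without the knockdown library of set 28 to 0.298 without the control library of set 20. The ratio of Areg counts for DS3201 under the control shRNA was 13.02 (95% counting interval 6.81 to 27.95), over 10 control counts.

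Btc encodes betacellulin, which activates EGFR and ERBB4. It was too low to pass the filter on low counts and entered no test at the main setting. It had 16 and 9 counts in the combined libraries, 8 and 7 in the inhibitor libraries, 1 and 1 in the knockdown libraries and 0 and 1 in the control libraries. All 4 libraries with DS3201 had at least 7 counts of Btc and no library without it had more than 1. The ratio of Btc from counts was 18.6 (95% counting interval 2.86 to 783) for inhibitor over control and 15.6 (3.90 to 136) for combined over knockdown. Fitted without the filter, the log2 fold change of Btc with DS3201 under the control shRNA was 3.81 ± 1.17 (adjusted p = 0.234, edgeR), and 4.42 ± 1.15 for combined against control (adjusted p = 0.119).

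Neither knockdown comparison called any of the 10 genes. Without DS3201, the log2 fold change of Tgfa in knockdown against control was 1.73 ± 0.90, on 8 and 2 counts, and that of Areg 1.03 ± 0.55, on 23 and 10 counts (adjusted p of 1 for both, edgeR). With DS3201, in combined against inhibitor, it was 0.43 ± 0.58 for Tgfa and -0.20 ± 0.48 for Areg (adjusted p of 1 for both). The interaction, which tests whether the DS3201 difference under the knockdown was unlike that under the control shRNA, was -1.30 ± 1.04 for Tgfa and -1.23 ± 0.73 for Areg on the log2 scale (adjusted p of 1 for both). These p-values do not show that the knockdown left the 2 ligands as they were.

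Over the family, 7 of the 10 genes passed the filter on low counts, and Btc, Egf and Epgn did not. Tgfa and Areg passed it through libraries with DS3201, where they were high. Without DS3201 they reached at most 0.244 and 0.606 CPM. Their entry into the tests thus depended on the groups that the tests compare. For DS3201 under the control shRNA, 1 of the 7 was called higher and none lower (2 higher with the block), in a table where 0.726% of entries were called higher (6.62% with the block). Under the knockdown, 1 was called higher (2 with the block), against 0.602% of entries (6.05% with the block). For combined against control, 2 were called higher with or without the block, against 1.43% of entries (9.21% with the block). All of these calls are Tgfa or Areg. Since the genes were chosen with these results known, nothing is read from the counts. In both knockdown comparisons and in the interaction, 0 of the 7 were called, as were 0% of entries, with or without the block. None of the 7 had an unadjusted p under 0.05 there in edgeR, and DESeq2 also called none of them.

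**Figure D2:**
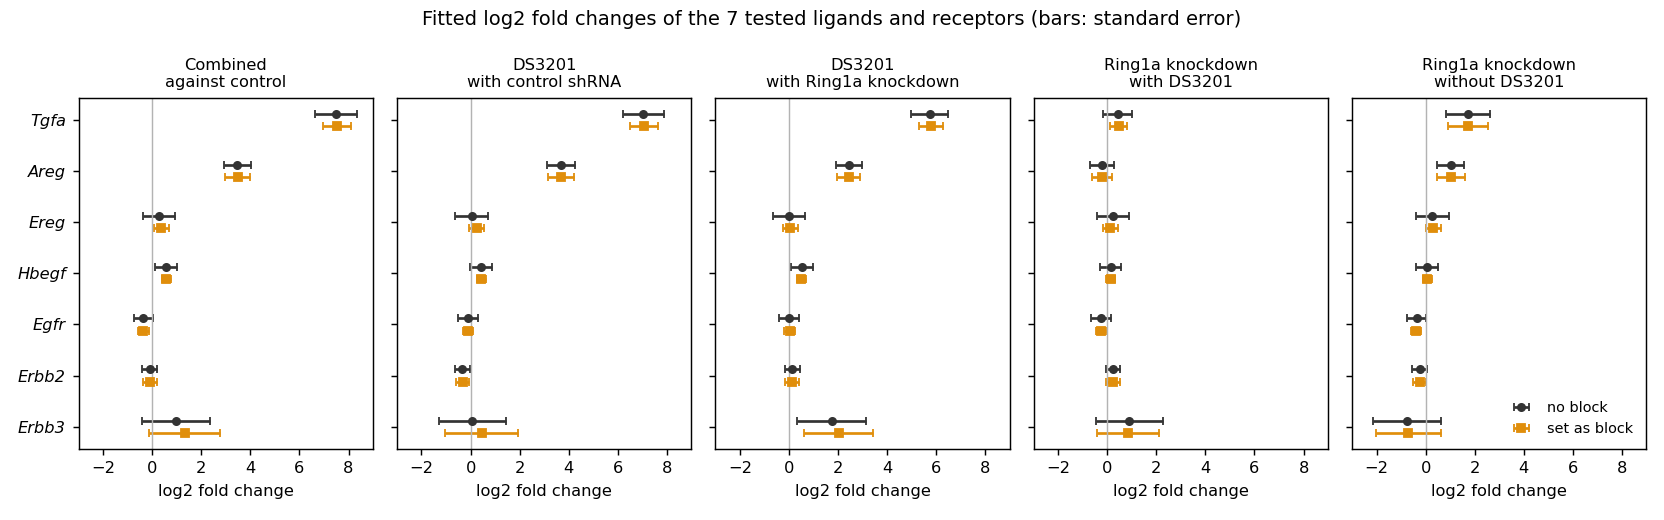
Log2 fold change (x axis) with its standard error (bars) of the 7 tested genes in 5 comparisons, from the edgeR fit without a term for the set (circles) and with the set as a block (squares). Tgfa and Areg lie to the right of 0 in the 3 comparisons that involve DS3201 against no DS3201. Ereg, Hbegf, Egfr and Erbb2 lie within 0.6 of 0 in all 5, and Erbb3 has the widest errors.

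Ereg encodes epiregulin and Hbegf heparin-binding EGF-like growth factor, and these were the 2 ligand genes with the most RNA per exon length in every library. Ereg had 33.1 and 15.7 CPM in combined, 22.8 and 18.5 CPM in inhibitor, 34.7 and 13.6 CPM in knockdown and 29.8 and 10.1 CPM in control libraries (set 20, set 28). In each group the set 20 library was higher than the set 28 library, and the 4 groups overlapped. The log2 fold change of Ereg with DS3201 was 0.05 ± 0.66 under the control shRNA and 0.01 ± 0.66 under the knockdown (adjusted p = 0.986 and 1, edgeR). Within sets, the DS3201 difference of Ereg under the control shRNA was -0.39 in set 20 and 0.87 in set 28 on the log2 scale.

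Hbegf went the other way between the sets, with 16.8 and 28.1 CPM in combined, 15.2 and 25.8 CPM in inhibitor, 12.5 and 18.8 CPM in knockdown and 11.0 and 19.4 CPM in control libraries. Within each set both libraries with DS3201 were above both without it, although the groups overlapped across sets. The log2 fold change of Hbegf with DS3201 was 0.43 ± 0.45 under the control shRNA and 0.52 ± 0.45 under the knockdown (adjusted p = 0.75 and 0.987, edgeR). With the set as a block the changes of Hbegf were 0.44 ± 0.18 and 0.50 ± 0.18 and did not pass either (adjusted p = 0.196 and 0.184). For combined against control, Hbegf passed in 1 alternative, the block without the inhibitor library of set 28 (adjusted p = 0.0305), and had an adjusted p of 0.756 without and 0.097 with the block over all 8 libraries.

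Egf, the gene of epidermal growth factor, had 7 and 10 counts in combined, 13 and 7 in inhibitor, 5 and 9 in knockdown and 9 and 3 in control libraries. Epgn, the gene of epigen, had 0 and 1 counts in combined, 3 and 1 in inhibitor, 2 and 1 in knockdown and 3 and 5 in control libraries. Neither passed the filter. The count ratio of Egf was 2.07 (95% counting interval 0.962 to 4.64) for inhibitor over control, and that of Epgn was 0.142 (0.00321 to 1.06) for combined over control. Both intervals include 1, so these counts do not show a difference in these 2 comparisons. Egf had 0.618 to 0.736 CPM in inhibitor and 0.201 to 0.428 CPM in control libraries.

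Divided by exon length, the ligand genes can be set beside one another. The summed level of the 7 ligands was 17.0 and 13.2 CPM per kb of exon in combined, 13.2 and 14.4 in inhibitor, 11.6 and 7.80 in knockdown and 9.83 and 6.95 in control libraries. All 4 libraries with DS3201 were above all 4 without it. Areg, which has the shortest exon length of the 7, made up 20.1% and 14.3% of that sum in combined, 20.5% and 23.7% in inhibitor, 4.05% and 6.39% in knockdown and 1.99% and 3.98% in control libraries. Tgfa made up 10.7% and 11.5% in combined, 11.7% and 6.43% in inhibitor, 0.325% and 0.266% in knockdown and 0.149% and 0% in control libraries. Ereg and Hbegf together held most of the sum in every library. In set 20 Ereg was the larger of these, at 47.2% in combined, 42.0% in inhibitor, 72.6% in knockdown and 73.6% in control, and in set 28 Hbegf was, at 43.9%, 37.1%, 49.8% and 57.8% in the same groups.

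**Figure D3:**
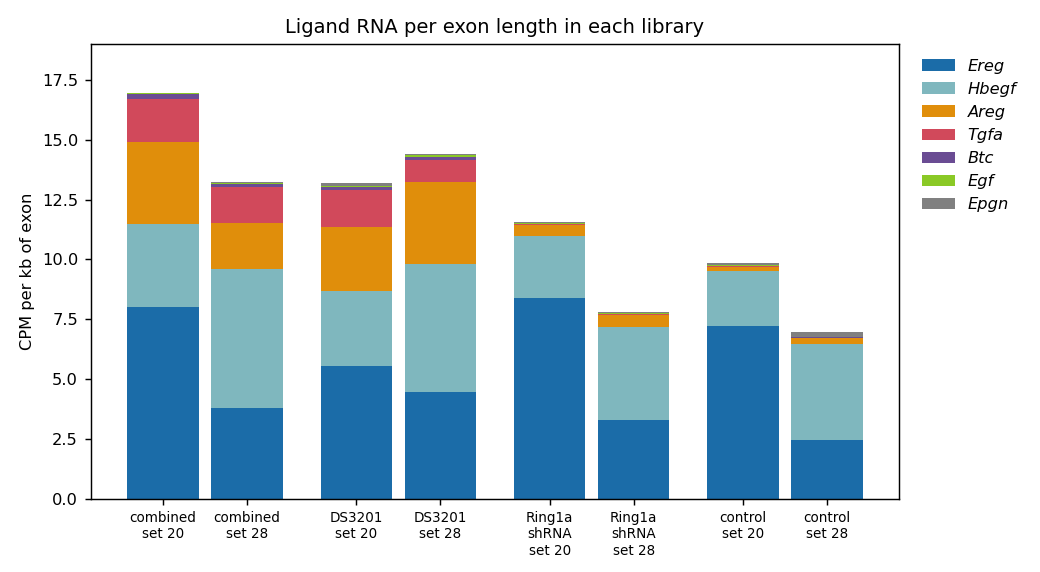
Summed ligand RNA in CPM per kb of exon (y axis, from 0) in each of the 8 libraries, stacked by ligand. The sums are 13.2 to 17.0 in the 4 libraries with DS3201 and 6.95 to 11.6 in the 4 without it, with Areg and Tgfa as wide layers in the first 4 libraries and thin ones in the last 4.

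Epgn, Ereg, Areg and Btc are neighbours on mouse chromosome 5, in this order and within 376 kb (GENCODE vM21 on GRCm38). Epgn runs from 91027464 to 91035215, Ereg from 91074622 to 91093646 and Areg from 91139599 to 91148432, all on the plus strand, and Btc from 91357261 to 91402994 on the minus strand. The gap between Ereg and Areg is 46.0 kb and that between Areg and Btc 209 kb. The 4 genes had unlike patterns: Ereg had 10.1 to 34.7 CPM over the 8 libraries, Areg and Btc were higher in all 4 libraries with DS3201, and Epgn stayed at 5 counts or fewer. Of the 5 nearest protein-coding genes on each side, 6 were tested, Cxcl1, Mthfd2l, Parm1, Rchy1, Cdkl2 and G3bp2, and none was called with DS3201 under either shRNA, with or without the block. With the block the nearest to a call was Cxcl1, a chemokine gene, at a log2 fold change of 0.89 ± 0.23 under the control shRNA (adjusted p = 0.062, edgeR), against 0.82 ± 1.45 without the block (adjusted p = 0.861). It had 51.0 and 5.56 CPM in combined, 39.9 and 7.07 CPM in inhibitor, 38.3 and 5.72 CPM in knockdown and 23.2 and 3.49 CPM in control libraries, so the sets differed more than the groups did.

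**Figure D4:**
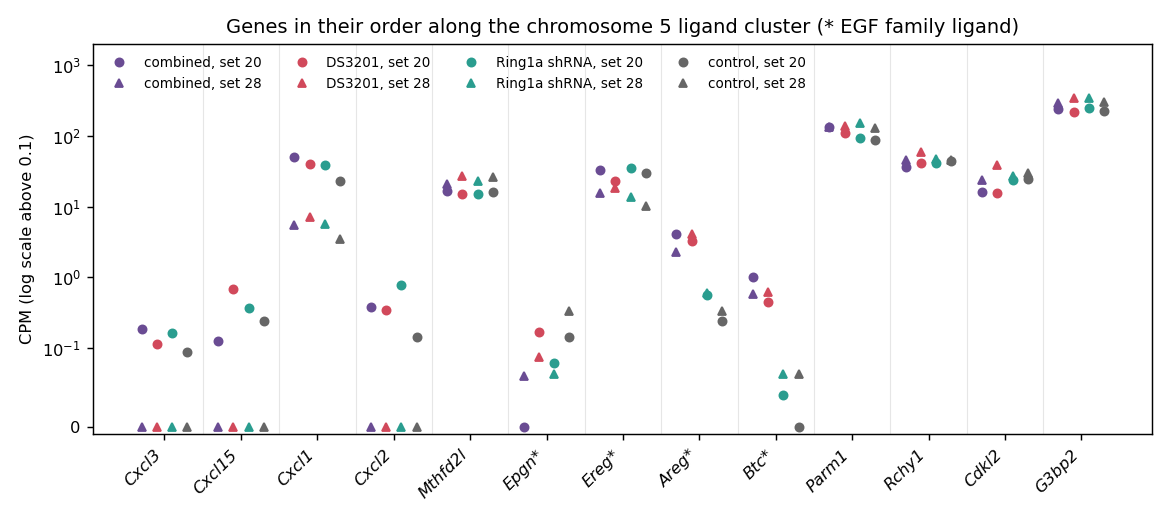
CPM (y axis, logarithmic above 0.1 and linear below) of the 4 clustered ligands (starred) and of their nearest protein-coding neighbours in the table, in gene order, with a point for each of the 8 libraries; circles are set 20 and triangles set 28. Areg and Btc separate the libraries with DS3201 from those without it, and the genes on both sides do not.

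Of the receptors, Erbb2 had the highest level per exon length of all 10 genes, with a mean of 10.3 CPM per kb over the 8 libraries, against 1.09 for Egfr and 0.794 for Erbb3. Egfr, the shared receptor of these ligands, had 12.997 and 9.01 CPM in combined, 15.0 and 11.3 CPM in inhibitor, 14.1 and 7.87 CPM in knockdown and 16.6 and 11.6 CPM in control libraries. Its groups overlapped, and its log2 fold change with DS3201 was -0.10 ± 0.39 under the control shRNA and 0.00 ± 0.39 under the knockdown (adjusted p = 0.941 and 1, edgeR). Erbb2, the partner without a ligand of its own, had 51.2 and 61.1 CPM in combined, 60.1 and 35.3 CPM in inhibitor, 48.6 and 53.2 CPM in knockdown and 51.2 and 69.5 CPM in control libraries. The lowest value is that of the inhibitor library of set 28, which also stood apart over all genes. The log2 fold change of Erbb2 with DS3201 was -0.34 ± 0.30 under the control shRNA and 0.14 ± 0.30 under the knockdown (adjusted p = 0.708 and 1).

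Erbb3, the neuregulin receptor, had 12.1 and 4.15 CPM in combined, 6.91 and 1.77 CPM in inhibitor, 0.812 and 4.11 CPM in knockdown and 0.428 and 7.92 CPM in control libraries. With DS3201 under the control shRNA the sets moved in opposite directions. In set 20 the DS3201 difference under the control shRNA was 3.69 on the log2 scale, and in set 28 it was -2.09. Under the knockdown it was 3.72 in set 20 and 0.02 in set 28. The fitted log2 fold change of Erbb3 was 0.08 ± 1.37 under the control shRNA and 1.74 ± 1.41 under the knockdown (adjusted p = 0.99 and 0.966, edgeR), and the block did not change either call (adjusted p = 0.867 and 0.541). Erbb4, the fourth receptor gene, had 0 to 2 counts in every library.

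The rest of the pathway was taken as 5 lists of 67 genes, of which 64 were tested. Without the block, 0 of the 64 were called in any of the 6 comparisons (edgeR). At an unadjusted p under 0.05 there were 3 higher and 2 lower for DS3201 under the control shRNA, 3 and 2 under the knockdown, 4 and 3 for combined against control, 2 and 0 for the knockdown without DS3201, 1 and 1 with it, and 0 and 0 in the interaction. Over all entries the unadjusted shares were 10.3% higher and 2.13% lower, 8.37% and 1.42%, and 10.4% and 2.79% in the first 3 of these comparisons. For the knockdown they were 0.674% and 0.34% without DS3201 and 0.811% and 0.968% with it, and for the interaction 0.0589% and 0.0916%. DESeq2 called 0 in both DS3201 and both knockdown comparisons, and 2 higher and 2 lower for combined against control. It tested all 67 genes, among 21811 entries. Over all entries it called 784 for DS3201 under the control shRNA, 687 under the knockdown and 1041 for combined against control. Most of the entries called in each of these 3 comparisons were higher. With the set as a block, 3 genes were called higher and 1 lower for DS3201 under the control shRNA, 1 higher and 0 lower under the knockdown, and 3 higher and 3 lower for combined against control. The block called 6.62% of all entries higher and 0.706% lower, 6.05% and 0.824%, and 9.21% and 2.06% in the same 3 comparisons. Median log2 fold changes over the 64 genes without the block were -0.10, -0.04 and 0.05 in these 3 comparisons, against 0.07, 0.01 and 0.02 over all entries tested.

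The other ligands of the family are the neuregulins, which bind ERBB3 and ERBB4, and none of the 3 tested was called. Nrg1 had 49.5 and 34.9 CPM in combined, 64.1 and 41.3 CPM in inhibitor, 47.1 and 40.7 CPM in knockdown and 53.2 and 38.6 CPM in control libraries. Nrg2 was at 0 counts in the set 20 libraries of the knockdown and control groups, and had 2.57 and 5.17 CPM in combined, 2.38 and 4.86 CPM in inhibitor, and 3.16 CPM in knockdown and 1.48 CPM in control in set 28. Its log2 fold change with DS3201 under the control shRNA was 2.32 ± 2.08 (adjusted p = 0.708, edgeR, and 0.209 with the block). Nrg4 ran from 2.81 to 3.70 CPM in the 4 libraries with DS3201 and from 3.89 to 5.48 CPM in the 4 without it, with a log2 fold change of -0.48 ± 0.38 under the control shRNA (adjusted p = 0.678). Among the genes of ligand shedding and transport, 0 of 11 tested were called without the block. Adam9, a membrane metalloprotease, had 122 and 124 CPM in combined, 153 and 219 CPM in inhibitor, 175 and 179 CPM in knockdown and 204 and 216 CPM in control libraries, and fell in combined against control with the block (-0.77 ± 0.17, adjusted p = 0.0331) but not without it (adjusted p = 0.156). Adam8, Adam19 and Adam15 had log2 fold changes of -1.15 ± 1.43, 0.66 ± 0.27 and -0.66 ± 0.41 with DS3201 under the control shRNA and passed in neither fit.

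The list of restraint and feedback holds 17 genes that dampen receptor or ERK signalling, and all 17 were tested. None was called without the block. With it (edgeR), 3 were called higher for DS3201 under the control shRNA, 1 under the knockdown and 3 for combined against control. None was called lower, and 6.62%, 6.05% and 9.21% of all entries were called higher. At an unadjusted p under 0.05 the block gave 5 higher and 1 lower for combined against control (16.8% and 8.31% of entries). Cbl was called in neither fit. Its mean was 40.9 CPM in combined and 60.6 CPM in control, with ratios of combined to control of 0.947 in set 20 and 0.481 in set 28. The genes called most often were Dusp4, Errfi1, Spred1 and Dusp6. Dusp4 and Dusp6 encode phosphatases that inactivate ERK and related kinases, Errfi1 a cytoplasmic inhibitor of EGFR, and Spred1 an inhibitor of RAS to ERK signalling. Dusp4 had 41.1 and 92.8 CPM in combined, 13.5 and 54.7 CPM in inhibitor, 12.6 and 37.4 CPM in knockdown and 4.28 and 20.5 CPM in control libraries. Within each set the combined library was the highest and the control library the lowest. With the block Dusp4 rose with DS3201 by 1.51 ± 0.28 under the control shRNA and 1.53 ± 0.27 under the knockdown, and by 2.70 ± 0.28 in combined against control on the log2 scale (adjusted p = 0.0236, 0.0199 and 0.00285, edgeR). Without the block it passed in none of these (adjusted p = 0.618, 0.902 and 0.379).

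Errfi1 had 44.2 and 39.6 CPM in combined, 31.9 and 29.8 CPM in inhibitor, 29.5 and 23.0 CPM in knockdown and 16.3 and 18.2 CPM in control libraries. Its 4 groups did not overlap. The log2 fold change of Errfi1 in combined against control was 1.28 ± 0.22, at an adjusted p of 0.0531 without and 0.00888 with the block (edgeR), and with DS3201 under the control shRNA 0.84 ± 0.22, at 0.161 without and 0.0447 with it. Dusp6 had 16.5 and 10.3 CPM in combined, 4.30 and 8.39 CPM in inhibitor, 6.78 and 6.66 CPM in knockdown and 2.85 and 4.63 CPM in control libraries. It rose in combined against control with the block (1.89 ± 0.43, adjusted p = 0.0335; 0.123 without). Spred1 had 81.3 and 102 CPM in combined, 77.0 and 150 CPM in inhibitor, 48.5 and 72.3 CPM in knockdown and 47.9 and 70.1 CPM in control libraries, and rose with DS3201 under the control shRNA with the block (0.90 ± 0.18, adjusted p = 0.0328; 0.396 without).

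None of the 16 genes of the adaptors and the RAS to ERK cascade was called in either fit. Map2k1, Map2k2 and Shc1, which encode MEK1, MEK2 and an adaptor, had log2 fold changes of -0.68 ± 0.31, -0.46 ± 0.49 and -0.41 ± 0.24 with DS3201 under the control shRNA (adjusted p = 0.441, 0.756 and 0.575, edgeR). Among 17 early response genes, which ERK signalling is known to induce, Egr1 and Fosb encode transcription factors of the immediate early class. Egr1 had 25.2 and 17.2 CPM in combined, 43.2 and 31.4 CPM in inhibitor, 51.6 and 39.6 CPM in knockdown and 51.2 and 86.6 CPM in control libraries. Both combined libraries were below all 6 others. Egr1 fell in combined against control with the block (-1.73 ± 0.33, adjusted p = 0.0201) and missed the threshold without it (-1.70 ± 0.36, adjusted p = 0.0782). Fosb had 4.27 and 1.79 CPM in combined, 5.21 and 1.85 CPM in inhibitor, 5.61 and 3.70 CPM in knockdown and 11.2 and 11.1 CPM in control libraries. It fell with the block in combined against control (-2.02 ± 0.41, adjusted p = 0.0249) and with DS3201 under the control shRNA (-1.80 ± 0.41, adjusted p = 0.0454), and passed in neither without it (adjusted p = 0.246 and 0.349). Over the 17 genes the median log2 fold change in combined against control was 0.42 without the block, against 0.02 over all entries, so that Egr1 and Fosb ran against the list's median. At an unadjusted p under 0.05 (edgeR) in that comparison, 1 was higher and 2 lower without the block, and 5 higher and 3 lower with it. The shares over all entries were 10.4% and 2.79% without the block, and 16.8% and 8.31% with it. Egr2 and Egr3 had log2 fold changes of 1.00 ± 1.04 and 1.14 ± 1.60 with DS3201 under the control shRNA and passed in neither fit.

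**Figure D5:**
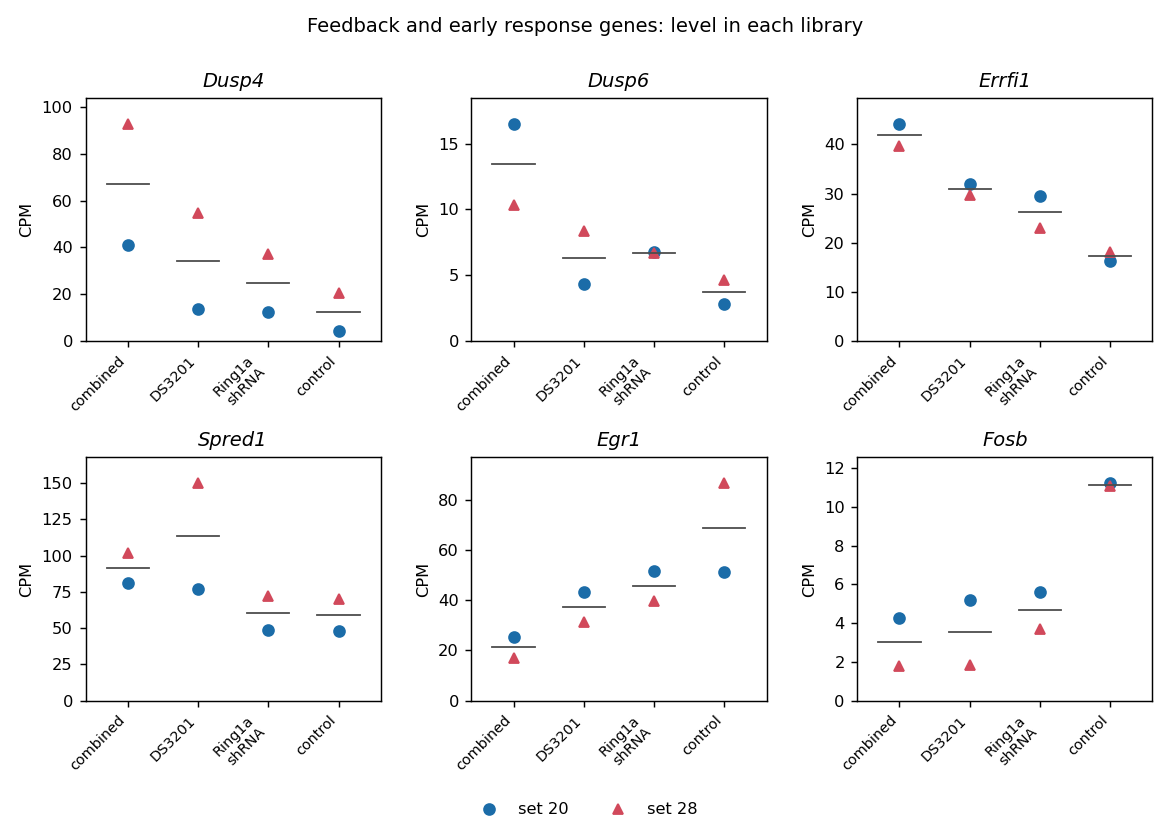
CPM (y axes start at 0) of 4 feedback genes and 2 early response genes for the combined, inhibitor (DS3201), knockdown (Ring1a shRNA) and control groups; circles are set 20, triangles set 28 and bars the mean of the 2 libraries. Dusp4 and Errfi1 are highest in the combined and lowest in the control library of each set, whereas Egr1 is lowest in the combined libraries and Fosb is highest in the control libraries, unlike the median of the early response list (0.42 on the log2 scale for combined against control).

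Tgfa and Areg are well known as ligands made by epithelia, and the epithelial markers are given beside them. Of 12 such markers, 8 to 11 had a count in each library, with a sum of 338 and 169 CPM in combined, 276 and 157 CPM in inhibitor, 189 and 93.02 CPM in knockdown and 185 and 102 CPM in control libraries. In each set the sum was higher in both libraries with DS3201. Krt14 and Krt19 carried most of it in all 8 libraries. Grhl2 had ratios of CPM with DS3201 to CPM without it of 1.08 (set 20) and 0.987 (set 28) under the control shRNA. Under the knockdown they were 1.42 and 1.21. Epcam, a defining epithelial marker, had 7 and 9 counts in combined, 6 and 12 in inhibitor, and 0 in all 4 libraries without DS3201, and Krt5 likewise was at 0 without DS3201 and had 3 to 8 counts with it. Krt8, a keratin gene of the same list, had 1.07 and 0.256 CPM in combined, 1.19 and 0.177 CPM in inhibitor, 3.17 and 0.0673 CPM in knockdown and 3.47 and 0.470 CPM in control libraries, and passed in neither fit (log2 fold change with DS3201 -1.49 ± 1.67 under the control shRNA, adjusted p = 0.769, edgeR). Cdh1 had 2 to 7 counts in every library and Krt18 0 or 1. None of the 5 tested epithelial markers was called without the block. With it, 1 was called higher under the knockdown and 1 in combined against control (6.05% and 9.21% of all entries). Esrp1, an epithelial splicing factor, rose with the block under the knockdown and in combined against control (2.99 ± 0.68 and 3.56 ± 0.74 on the log2 scale, adjusted p = 0.0478 and 0.0269, edgeR), on 1 to 18 counts per library. The summed macrophage and blood markers ran from 13.5 to 20.5 CPM with DS3201 and from 8.14 to 21.9 CPM without it, with Tyrobp at 0 in all 8 libraries, and Lyz2 was called higher with DS3201 under both shRNAs (5.10 ± 0.73 and 4.89 ± 0.70, adjusted p = 0.0478 and 0.0485). Itgam of the same list fell with the block under the control shRNA and in combined against control (-2.37 ± 0.51 and -2.48 ± 0.49, adjusted p = 0.0376 and 0.0223; 0.565 and 0.619 without the block), and Cd68 was at -0.76 ± 0.91 under the control shRNA (adjusted p = 0.781). The summed endothelial markers ran from 14.5 to 20.3 CPM with DS3201 and from 11.1 to 22.6 CPM without it, mostly from Kdr. Tek, an endothelial receptor gene, had 1.85 to 5.21 CPM in the 4 libraries with DS3201 and 0.143 to 0.604 CPM in the 4 without it, and rose under the control shRNA with the block (3.46 ± 0.79, adjusted p = 0.0465; 0.163 without). The fibroblast sum was lower in all 4 libraries with DS3201, and its markers went both ways. Group means in combined, inhibitor, knockdown and control were 8.67, 6.92, 0.222 and 0.134 CPM for Dcn. They were 22.8, 15.4, 4.12 and 1.07 CPM for Pdgfra and 70.1, 58.6, 198 and 166 CPM for Pdgfrb. With the block (edgeR), 2 of 10 tested fibroblast markers were called higher and 3 lower for combined against control (9.21% and 2.06% of all entries). The part of any of these in the levels of the ligands was not tested.

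Over the 8 libraries the genes whose log2 CPM was most like that of Tgfa were Pcdh7, Tcstv1 and Nova2, with Pearson's r of 0.996, 0.994 and 0.993 and Spearman's rho of 0.929, 0.905 and 0.929. For Areg they were Mospd1, Sfmbt2 and Atp8a1 (r of 0.986, 0.984 and 0.983, rho of 0.952, 0.929 and 0.857), and for Erbb3 Zbtb8a, Akna and Rangrf (r of 0.959, 0.952 and 0.952, rho of 1, 0.929 and 0.881). These are the highest values of r among 12943 tested genes with a mean of at least 1 CPM, given as a description. The 8 points share 4 groups and 2 sets, so that genes that differ between libraries with and without DS3201 score high by this measure.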

How the data were processed

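Poly(A) RNA-seq was analysed from 8 libraries in 4 groups of 2, grouped by their labels. The authors deposited raw counts per gene symbol and repeat subfamily for 25215 entries, with no normalization. The submitters' processing notes name Trim Galore, TopHat2 and mm10, with no versions. Which counting tool, strand setting and annotation were used is not given in the sources used here. A further 8 columns fit no labelled sample and are left out.

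The test was edgeR 4.0.16 (R 4.3.3) on the counts as deposited: filterByExpr by group (15287 entries left), TMM scaling, 1 term per group over all 8 libraries, robust quasi-likelihood F tests (two-sided) and Benjamini-Hochberg adjustment over all entries, with a threshold of 0.05. The contrasts were DS3201 with control shRNA (inhibitor minus control), DS3201 with the knockdown (combined minus knockdown), combined minus control, the knockdown without DS3201 (knockdown minus control) and with it (combined minus inhibitor), and the interaction. CPM uses TMM-scaled library sizes and log2 CPM a prior count of 2. Standard errors were taken from the fitted change and its F statistic. Count ratios have exact binomial 95% intervals, which, like the floor of 3 counts, cover counting error only. The fit was also run on simulated counts with a set effect shared by all groups and genes of low mean count left out. That run is no check of calls that rest on few counts. Exon lengths and positions are from GENCODE vM21 (GRCm38), promoters from RefSeq (GRCm38.p6).

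The labels give replicates 1 and 2 a batch each but do not say which number is set 20 or set 28. The differences of set 20 from set 28 correlated between groups with r of 0.559 to 0.897 over the 15287 entries, so the set was used as the replicate block. Other alternatives were RLE scaling, no filter, DESeq2 1.42.0, a reduced block (the set as block, with the set 28 inhibitor library left out), and leaving out each library.

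The 10 genes, the lists, the tests and the alternatives were chosen with earlier results of these data known. Named were all 10 genes, up to 4 tested genes per pathway list (those called most often, then those with the largest DS3201 change under the control shRNA), Ring1, the neighbours of the chromosome 5 ligands, and the 3 genes most like each of the 3 tested family genes with the widest range. Single markers, Cbl and Cxcl1 were named after their values were seen. Of the genes this rule names, 1 is not reported here.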

Additional observations from a re-analysis of the deposited data

Results flagged for a closer look

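Adam8, a metalloprotease gene of the shedding list, went down with the knockdown in both sets without DS3201 and up in both with it: the log2 differences were -0.20 (set 20) and -0.51 (set 28) in knockdown against control, and 0.12 (set 20) and 0.38 (set 28) in combined against inhibitor. The fitted interaction of Adam8 was 0.39 ± 1.99 (adjusted p of 1, edgeR).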

How the results depend on the processing

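Entries called, against 111 for DS3201 under the control shRNA, 92 under the knockdown and 223 for combined against control, were 1120, 1051 and 1723 with the set as replicate block, 784, 687 and 1041 with DESeq2, and 921, 2095 and 3804 with the reduced block. Without the filter they were 191 and 211 for the DS3201 comparisons. That fit and DESeq2 tested 21811 entries, and the block 15287. Entries called higher for DS3201 under the control shRNA were 190 without the filter, 731 with DESeq2 and 1012 with the block. Under the knockdown they were 210, 654 and 925. DESeq2 called 1 entry in each knockdown comparison. With 1 library left out the counts ran from 1 to 116, 1 to 100 and 1 to 216. Of the 10 genes, 2 were called for DS3201 under the control shRNA with the block, without the filter, with DESeq2 and with the reduced block, and 2 under the knockdown with the block, DESeq2 and the reduced block, against 1 in each otherwise. With 1 library left out, 0 to 1 were called in each of the 3 comparisons. For combined against control the reduced block called 4, adding Btc (adjusted p = 0.0388) and Hbegf (adjusted p = 0.0305). The reduced block leaves 1 inhibitor library, and its 3804 entries were the most called by any fit in that comparison. Its calls of Btc and Hbegf are therefore not read as added evidence for these genes. Among the 10 genes, the block over all 8 libraries changed no call other than those of Areg. The causes were not tested. Tgfa and Areg were higher with DS3201 under every alternative.

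Changes near 0 switched sign. For DS3201 under the control shRNA, Ereg was -0.047 without the filter and -0.34 with the reduced block, and Erbb2 0.088 with the reduced block. With 1 library left out, Ereg ran from -0.54 to 0.99, Hbegf from -0.050 to 0.89, Egfr from -0.34 to 0.14, Erbb3 from -1.23 to 3.33 and Adam9 from -0.51 to 0.059. Under the knockdown Ereg was -0.022 and Egfr -0.029 without the filter, and Egfr -0.0060 with DESeq2. With 1 library left out they ran from -0.64 to 0.85 and from -0.36 to 0.49. For the knockdown with DS3201, Areg was 0.12 with the reduced block and ran from -0.64 to 0.16 with 1 library left out. Depth limits Btc, Egf and Epgn most.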
